A study of Mus musculus with 12 samples.

Results

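Relative to the array median, a group of 65 genes had a higher signal in rostral than caudal embryonic mouse neocortex in all 6 pools. They were chosen by that readout. A gene entered when its log2 ratio of rostral over caudal signal was above 0 in all 6 pools and averaged at least 0.4. Of the 8879 gene symbols with a value in all 6 pools, 83 met the rule, which is 0.935%, and 19 genes, among them Sfrp1, Etv5, Pax6 and Zic1, were set aside, 18 of which met it. What remained is a set with no common theme in its definition. It is led by Scrn1, Mpped2 and Dct, each with a mean ratio above 1 on the log2 scale, a 2-fold difference or more, and it includes Tagln2. The ratios chose the genes, so they are given below as a description and carry no test.

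The tissue was taken at E13.5. The MF1 embryos belong to an outbred stock and the C57 embryos to an inbred strain (C57Bl\6 in the series' design text), and no other genotype or treatment is named. Each strain gave 3 pools, each pool held tissue of 3 embryos per the labels, and the rostral and caudal RNA of a pool met on 2 arrays with the Cy3 and Cy5 dyes exchanged, which made 12 arrays. Tissue was taken within single litters and the cDNA was amplified by a polymerase chain reaction method (SMART), per the series' design text. The p-values measure only the spread between these pools, which may be technical in part. In bulk tissue, fewer cells of a type and less RNA per cell cannot be told apart. The files hold ratios and no levels, so whether neocortical markers were present could not be checked.

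At this stage the wall of the neocortex consists of dividing radial glia beside the ventricle and of the first layers of neurons, and signals from its rostral pole and from its medial edge set graded programmes of transcription along its length. Secernins are cytosolic proteins, of which Scrn1 is known for a part in exocytosis. Mpped2 is a metallophosphoesterase known from fetal brain. Dct, dopachrome tautomerase, is an enzyme of melanin synthesis that is also transcribed in the embryonic telencephalon. Tagln2, transgelin 2, binds actin filaments.

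The sign of every ratio is likely rather than known, since the sources used here do not say which channel was the numerator, and Cy5 over Cy3 was assumed. On that reading Nr2f1 and Lhx2, known to be higher caudally, had mean ratios of -1.14 ± 0.57 and -0.50 ± 0.13 (SD, n = 6 pools). Etv5 and Pax6, known to be higher rostrally, had 0.54 ± 0.05 and 0.40 ± 0.18, and both are among the genes set aside that met the rule. Other patterning genes gave no clear side. Emx2 (0.09 ± 0.27), Fgf8 (0.19 ± 0.25) and Fgf17 (-0.05 ± 0.41) each had pools on both sides of 0. With the other reading, the 65 genes would be the ones higher caudally. The median of each array was set to 0. Without that centring the median of all features moved by -0.19, and 6 of the 65 genes met the rule. All 65 means stayed above 0.

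The promoters of 57 of the 65 genes were in the RefSeq table used here (GRCm38.p6), and those of 6 genes are printed because the genes differ in role. Each window holds the 250 bases before the start of the gene, read 5′ to 3′ along the gene's strand. Dct at chr14:118052247-118052496 (minus strand) and Oca2 at chr7:56239509-56239758 (plus strand) are the pigment genes of the group, and capitals mark the M-box (TCATGTG, searched on both strands), an element known from promoters of pigment genes.

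Dct promoter: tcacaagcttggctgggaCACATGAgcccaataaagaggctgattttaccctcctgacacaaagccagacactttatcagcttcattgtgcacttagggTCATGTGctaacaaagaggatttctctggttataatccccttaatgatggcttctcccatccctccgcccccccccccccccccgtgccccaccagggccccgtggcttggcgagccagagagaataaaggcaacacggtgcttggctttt
Oca2 promoter: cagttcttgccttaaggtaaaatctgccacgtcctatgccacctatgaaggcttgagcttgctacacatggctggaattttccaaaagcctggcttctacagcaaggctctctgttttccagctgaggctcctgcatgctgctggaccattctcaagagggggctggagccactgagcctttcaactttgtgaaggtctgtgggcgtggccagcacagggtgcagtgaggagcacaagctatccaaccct

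The Dct window held 2 M-boxes and that of Oca2 held none. Among the other members only Anxa7, an annexin that binds membranes, had one, so that 2 of 57 members (3.51%) and 2.31% of the 6967 genes with a window and a value in all 6 pools carried these letters.

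Scrn1 at chr6:54566383-54566632 (minus strand) and Tagln2 at chr1:172499996-172500245 (plus strand) are the other genes printed for their role, in exocytosis and in binding actin. Capitals mark GC boxes (GGGCGG on either strand), which are bound by factors of the Sp family.

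Scrn1 promoter: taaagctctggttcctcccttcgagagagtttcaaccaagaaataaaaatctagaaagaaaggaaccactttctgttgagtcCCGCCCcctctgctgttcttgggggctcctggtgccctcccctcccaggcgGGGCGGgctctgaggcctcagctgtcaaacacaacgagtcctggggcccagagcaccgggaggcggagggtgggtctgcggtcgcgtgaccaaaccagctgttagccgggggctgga
Tagln2 promoter: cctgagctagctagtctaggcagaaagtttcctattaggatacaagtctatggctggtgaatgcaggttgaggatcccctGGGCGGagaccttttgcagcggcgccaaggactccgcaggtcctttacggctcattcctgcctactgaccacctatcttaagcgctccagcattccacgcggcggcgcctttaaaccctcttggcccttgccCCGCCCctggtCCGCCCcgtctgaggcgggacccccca

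Scrn1 had 2 GC boxes and Tagln2 had 3. A GC box lay in the window of 36 of 57 members (63.2%) and of 59.1% of the genes with a value in all 6 pools, so the members differed little from the genes measured. Against the 35.4% of all 27025 genes in the table the share is higher, as it was for the measured genes as a whole.

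H2az1 at chr3:137864237-137864486 (plus strand) and Gpsm2 at chr3:108722300-108722549 (minus strand) are genes of chromatin and of cell division. Capitals mark the CCAAT box (CCAAT on either strand) in both, and in Gpsm2 also TTTGAA on either strand, the letters of the cell cycle homology region, which do not overlap the CCAAT box there.

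H2az1 promoter: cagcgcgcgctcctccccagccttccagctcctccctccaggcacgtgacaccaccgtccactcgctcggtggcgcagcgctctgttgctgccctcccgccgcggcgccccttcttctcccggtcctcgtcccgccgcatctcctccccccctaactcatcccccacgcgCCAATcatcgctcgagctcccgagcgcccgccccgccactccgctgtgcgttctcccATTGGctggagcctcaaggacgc
Gpsm2 promoter: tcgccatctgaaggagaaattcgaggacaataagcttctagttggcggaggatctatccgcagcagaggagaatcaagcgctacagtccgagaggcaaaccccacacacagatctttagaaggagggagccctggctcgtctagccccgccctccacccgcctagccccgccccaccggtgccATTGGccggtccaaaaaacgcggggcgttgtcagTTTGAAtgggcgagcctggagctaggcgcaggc

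The CCAAT box occurred in 6 of the 8 cell division and chromatin genes with a window, in 25 of 57 members (43.9%) and in 40.2% of the measured genes. TTTGAA occurred in 3 of these 8 genes, in 9 of 57 members (15.8%) and in 13.4% of the measured genes. The genes were put into roles after their names were known, so these counts are a description. Further searches gave 4 members with TATAAA (7.02%, against 9.86% of the measured genes), 5 with the E-box CACGTG (8.77% against 9.34%), 2 with the ETS letters CCGGAAGT (3.51% against 5.96%) and 6 with the nuclear receptor letters AGGTCA (10.5% against 13.8%).

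Scrn1 had the highest mean of the group. Its log2 ratios were 1.41, 1.52 and 1.495 in MF1 pools 1 to 3 and 1.37, 0.78 and 0.67 in C57 pools 1 to 3, with a mean of 1.21 ± 0.38 (SD, n = 6 pools), a 2.31-fold difference. All 3 MF1 pools were above all 3 C57 pools, though C57 pool 1 lay close to them. Of its relatives, Scrn3 was at -0.11 ± 0.42 over 4 pools, 1 of them above 0, and Scrn2 had values in 3 pools only, 1.71, -0.44 and -0.26.

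Mpped2 had log2 ratios of 1.23, 0.26 and 0.80 in the MF1 pools and 1.11, 1.54 and 1.17 in the C57 pools, with a mean of 1.02 ± 0.44 and a 2.02-fold difference. MF1 pool 2 was low and the other pools were all near or above 0.8. The strains overlapped, since MF1 pool 1 lay within the range of the C57 pools. Its relatives Mpped1 and Cpped1 were not matched to the array and not analysed here.

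Tagln2 was among the evenest members, with ratios of 0.61, 0.67 and 0.92 in MF1 and 0.85, 0.47 and 0.62 in C57 and a mean of 0.69 ± 0.17. The strains overlapped, from 0.61 to 0.85. Of the other transgelins and calponins, Tagln, a smooth muscle protein, was at -0.29 ± 0.97 with 3 of 6 pools above 0, and the neuronal Tagln3 at 0.17 ± 0.23 with 4 of 6. Cnn3 had 5 of 6 pools above 0 and a mean of -0.11 ± 0.89, since MF1 pool 2 was at -1.88. Cnn1 was measured in MF1 only (0.23 ± 0.20, n = 3 pools), and Cnn2 in 4 pools (-0.04 ± 0.43).

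**Figure D1:**
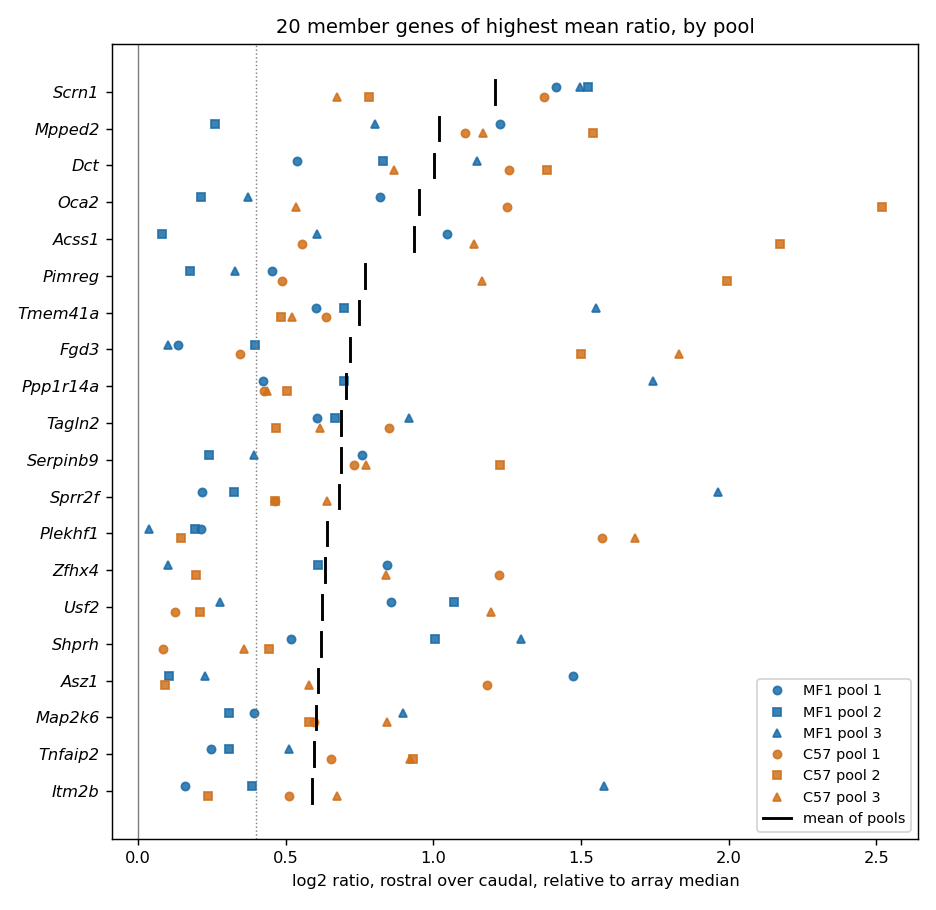
Log2 ratio of rostral over caudal signal, relative to the array median (horizontal axis), for the 20 members of highest mean. Each symbol is 1 pool, blue for MF1 and orange for C57, the black line is the mean of the 6 pools, and the dotted line marks 0.4. Scrn1, Mpped2, Dct and Tagln2 have most pools beyond the dotted line, while for Tmem41a, Ppp1r14a, Sprr2f and Itm2b a single pool, MF1 pool 3, lies far to the right.

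Pigment genes gave the group Dct and Oca2, the latter a membrane protein of the melanosome. Dct had log2 ratios of 0.54, 0.83 and 1.15 in MF1 and 1.26, 1.39 and 0.87 in C57, with a mean of 1.004 ± 0.32 and a 2.01-fold difference. No Dct pool was below 0.5, and the strains overlapped. Oca2 had ratios of 0.82, 0.21 and 0.37 in MF1 and 1.25, 2.52 and 0.54 in C57, with a mean of 0.95 ± 0.85. C57 pool 2 held by far its highest value. The mean of Oca2 was 0.12 over the 6 arrays with rostral RNA in Cy3 and 1.78 over the 6 with rostral RNA in Cy5, whereas Dct gave 0.78 and 1.22.

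The rest of the pigment list did not lie with these genes. Of its 20 genes 18 were on the array and 17 were tested; 6 were above 0 and 11 below, the median was -0.02, and 0 passed (limma, adjusted over all features). Without Dct and Oca2 the median was -0.03, against 0.01 for all 14418 features. The melanosome genes Pmel (0.09 ± 0.22), Tyrp1 (-0.22 ± 0.76), Trpm1 (-0.005 ± 0.22), Rab38 (-0.01 ± 0.43) and Bace2 (-0.04 ± 0.29) had pools on both sides of 0, as had Sox10 (0.08 ± 0.36) and Kit (-0.08 ± 0.24), a factor and a receptor of the melanocyte lineage (SD, n = 6 pools). So had Tyr, tyrosinase (-0.02 ± 0.32, n = 5), Mlana (0.06 ± 0.32, n = 5), Gpr143 (-0.05 ± 0.18, n = 5), Slc45a2 (-0.45 ± 1.44, n = 4), Mlph (0.55 ± 1.23, n = 4) and Mc1r (-0.41 ± 0.50, n = 3), the last outside the fit.

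Of the list, 3 genes were below 0 in 6 of 6 pools, each with a mean at or below -0.4. Among all 8879 symbols with 6 pools, 78 were of this kind. The count in the list was not tested. Mitf, the transcription factor that binds the M-box, had log2 ratios of -0.01, -0.72 and -0.34 in MF1 and -1.19, -0.32 and -0.23 in C57, with a mean of -0.47 ± 0.42 (limma, adjusted p = 0.521). Ednrb, an endothelin receptor of neural crest and glial cells, had a mean of -0.40 ± 0.31 (limma, adjusted p = 0.484). Rab27a, which carries melanosomes, had a mean of -0.65 ± 0.75 (limma, adjusted p = 0.484). None of these passed, and on the arrays with rostral RNA in Cy3 alone Mitf averaged -0.0073.

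**Figure D2:**
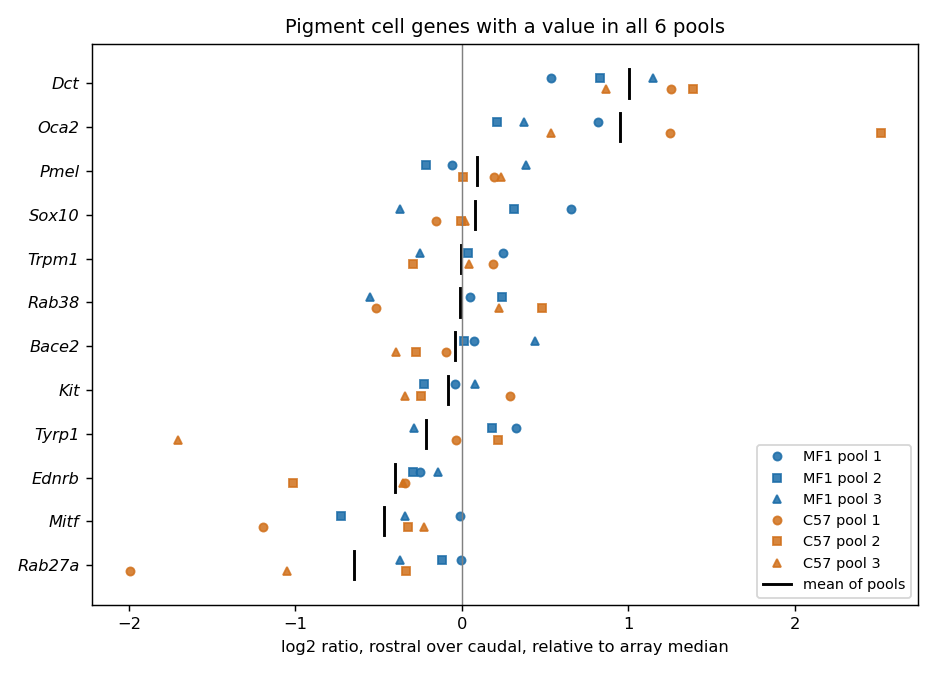
Log2 ratio of rostral over caudal signal, relative to the array median (horizontal axis), for the pigment cell genes with a value in all 6 pools. Each symbol is 1 pool, blue for MF1 and orange for C57, and the black line is the mean. Dct and Oca2 have all pools to the right of 0, Ednrb, Mitf and Rab27a have all pools to the left, and the other genes straddle 0.

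Genes of cell division and chromatin made up 10 members, with means from 0.41 to 0.77. Pimreg, a mitotic protein, led them with ratios of 0.45, 0.17 and 0.33 in MF1 and 0.49, 1.99 and 1.17 in C57, a mean of 0.77 ± 0.69 in which every C57 pool was above every MF1 pool. Its highest value, in C57 pool 2, was the mean of 0.065 with rostral RNA in Cy3 and 3.92 in Cy5. Shprh, a ubiquitin ligase of DNA damage tolerance, showed the opposite order of strains, with 0.52, 1.01 and 1.30 in MF1 and 0.08, 0.45 and 0.36 in C57 (0.62 ± 0.45). The cyclin gene Ccna2 was at 0.49 ± 0.37, Gpsm2, which orients the mitotic spindle, at 0.46 ± 0.22, and the spindle protein gene Psrc1 at 0.42 ± 0.18. Rgcc, a regulator of the cell cycle, was at 0.42 ± 0.35, and Tacc2, a centrosomal protein, at 0.41 ± 0.30. Both genes of the histone variant H2A.Z were members. H2az2 had the smallest spread of the group, with 0.44, 0.43 and 0.60 in MF1 and 0.61, 0.25 and 0.52 in C57 (0.48 ± 0.14), and H2az1 had 0.19, 0.80 and 0.37 in MF1 and 0.78, 0.28 and 0.43 in C57 (0.48 ± 0.26). They were 2 of the 15 histone symbols with 6 pools (13.3%, against 0.732% of all symbols with 6 pools), whose median was 0.06. This share was not tested. Hmgn1, a nucleosome-binding protein, was at 0.41 ± 0.29.

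Transcription factors numbered 6, with means from 0.44 to 0.63. Zfhx4, a zinc finger and homeodomain factor, had ratios of 0.84, 0.61 and 0.10 in MF1 and 1.22, 0.20 and 0.84 in C57 (0.63 ± 0.43). Usf2, which binds E-boxes, had 0.86, 1.07 and 0.28 in MF1 and 0.13, 0.21 and 1.20 in C57 (0.62 ± 0.47). Both had high and low pools in each strain. Hes5, an effector of Notch signalling in radial glia, had 0.01, 0.06 and 0.19 in MF1 against 0.52, 1.27 and 0.89 in C57 (0.49 ± 0.50), so its place in the group rests on C57. Sall1, a zinc finger factor, was at 0.44 ± 0.29 and Runx1 at 0.46 ± 0.37. Junb, a subunit of AP-1, was at 0.59 ± 0.58 with 1.69 in MF1 pool 1.

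Signalling genes numbered 8, with means from 0.43 to 0.60. Map2k6, which activates the kinase p38, had ratios of 0.39, 0.31 and 0.90 in MF1 and 0.60, 0.58 and 0.84 in C57 (0.60 ± 0.24). The other kinase pathway members were Dusp8, a phosphatase of MAP kinases (0.44 ± 0.22), Mapk8ip1, a scaffold of the kinase JNK (0.45 ± 0.71), and Stk39, a kinase that regulates ion cotransporters (0.53 ± 0.22). Mapk8ip1 was led by 2 C57 pools, at 0.78 and 1.77, with the other 4 pools at 0.13 or less. Acting on Wnt signalling are Amer1, which binds APC (0.55 ± 0.30), and Cby1, which binds beta-catenin (0.49 ± 0.28). Pde4b, which degrades cyclic AMP, was at 0.43 ± 0.30 and the semaphorin Sema4b at 0.45 ± 0.30.

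Genes of actin and membrane traffic numbered 9, Tagln2 among them. Fgd3, an exchange factor of small GTPases, had ratios of 0.14, 0.40 and 0.10 in MF1 and 0.35, 1.50 and 1.83 in C57 (0.72 ± 0.75), 2 high C57 pools against 4 low ones. Ppp1r14a, an inhibitor of myosin phosphatase, had 0.42, 0.70 and 1.74 in MF1 and 0.43, 0.51 and 0.44 in C57 (0.71 ± 0.52), 1 high pool against 5 close together. Plekhf1, an endosomal protein, had 0.21, 0.19 and 0.04 in MF1 and 1.57, 0.15 and 1.68 in C57 (0.64 ± 0.77). Its SD exceeded its mean, as it did in 6 members in all. The others were Rinl (0.56 ± 0.54), Tpm2, a tropomyosin (0.49 ± 0.37), Anxa7 (0.45 ± 0.41), the exchange factor Cyth2 (0.43 ± 0.32) and Lima1, which crosslinks actin (0.41 ± 0.31).

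Metabolic and mitochondrial genes numbered 6. Acss1, a mitochondrial acetyl-CoA synthetase, had ratios of 1.05, 0.08 and 0.61 in MF1 and 0.56, 2.17 and 1.14 in C57 (0.93 ± 0.72), with high and low pools in both strains. Ldhb, a subunit of lactate dehydrogenase, was at 0.45 ± 0.39, the ribokinase gene Rbks at 0.42 ± 0.21, Cyb5r4 at 0.46 ± 0.34, Atp5k, a subunit of ATP synthase, at 0.47 ± 0.61, and Stoml2, a protein of the inner mitochondrial membrane, at 0.47 ± 0.60. Rbks was even across pools, while Atp5k and Stoml2 each had 1 pool above 1.6 and the others below 0.5. Membrane and matrix genes were Itm2b (0.59 ± 0.52, with 0.16, 0.39 and 1.58 in MF1 and 0.51, 0.24 and 0.67 in C57), the membrane protein gene Ttyh1 (0.47 ± 0.26), the metalloprotease gene Mmp24 (0.48 ± 0.37) and Ogn, a matrix proteoglycan (0.43 ± 0.27).

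A set of 6 members is known mainly from tissues outside the brain. Serpinb9, an inhibitor of granzyme B, had ratios of 0.76, 0.24 and 0.39 in MF1 and 0.73, 1.23 and 0.77 in C57 (0.69 ± 0.34). Sprr2f, a protein of the cornified envelope, had 0.22, 0.33 and 1.96 in MF1 and 0.46, 0.46 and 0.64 in C57 (0.68 ± 0.65). Asz1, a germ cell gene, had 1.47, 0.11 and 0.23 in MF1 and 1.18, 0.09 and 0.58 in C57 (0.61 ± 0.59). Serpinb9 was spread over its pools, whereas Sprr2f had 1 pool above 1 and Asz1 had 2. Bpifb1, a secreted protein of airways, was at 0.58 ± 0.46, Nkapl, a gene of testis, at 0.54 ± 0.40 and Tcp10b at 0.43 ± 0.32.

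The remaining 14 members have no shared role; Scrn1 and Mpped2 are 2 of them. Tmem41a, a membrane protein, had ratios of 0.60, 0.70 and 1.55 in MF1 and 0.64, 0.49 and 0.52 in C57 (0.75 ± 0.40). Tnfaip2, a gene induced by tumour necrosis factor, had 0.25, 0.31 and 0.51 in MF1 and 0.65, 0.93 and 0.92 in C57 (0.595 ± 0.29), with no overlap between strains. The imprinted gene Mest was at 0.59 ± 0.34, Dipk1b at 0.55 ± 0.54, Avpi1 at 0.47 ± 0.44, the uncharacterised transcript 2510003B16Rik at 0.47 ± 0.33 and Commd3 at 0.42 ± 0.25. Syap1 was at 0.42 ± 0.33, Emc9 at 0.41 ± 0.28, Sncaip at 0.41 ± 0.33, Slc4a1ap at 0.41 ± 0.23 and Urm1, a ubiquitin-like protein, at 0.404 ± 0.16.

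Over the group, means ran from 0.404 to 1.21 with a median of 0.48, and 37 of the 65 were under 0.5. The SD over pools ran from 0.14 in H2az2 to 0.85 in Oca2. The median SD was 0.34, and over all symbols with 6 pools it was also 0.34. H2az2, Urm1, Tagln2, Psrc1 and Rbks had the smallest spread. In 33 members the lowest pool was under 0.1, and 37 fell below a mean of 0.4 when their highest pool was left out. The highest value was in MF1 pool 3 for 16 members and in C57 pool 2 for 14, and the lowest in MF1 pool 2 for 16.

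Just inside the threshold lay Urm1, Lima1, Slc4a1ap, Tacc2 and Sncaip, with means from 0.404 to 0.413. Just outside lay Foxp1, Mpnd, Boc, Mobp and Slc27a4, all above 0 in 6 of 6 pools, with means from 0.396 to 0.3995. Among symbols with 6 pools, 327 (3.68%) were above 0 in all of them and 303 (3.41%) had a mean of at least 0.4. Of these 303, 110 were above 0 in 5 pools and 97 in 4. Symbols with 4 or 5 measured pools could not enter, and 106 of them were above 0 in every measured pool with a mean of at least 0.4.

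The pools did not resemble each other across all probes. Spearman correlations between pools ran from -0.21 to 0.25. MF1 pool 3 correlated at -0.18 and -0.21 with the other MF1 pools, and the turned ratios of the 2 arrays of a pool correlated at 0.04 to 0.24 in MF1 and at -0.30 to -0.13 in C57. Without MF1 pool 3 the members' means ran from 0.30 to 1.15, 10 of them under 0.4. The rule applied to the other 5 pools then chose 180 symbols, 55 of the 65 among them. The fit over all features called 0 of 14418 between rostral and caudal (0% by limma at an adjusted p of 0.05; smallest adjusted p 0.147), with 1295 (8.98%) at an unadjusted p under 0.05. It used the contrast that chose the members, so nothing is read from it for them.

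Single arrays gave a finer view than pool means. On all 12 arrays 6 members were above 0, against 0.259% of symbols with 6 pools: Dct, Tmem41a, Fgd3, Tagln2, Amer1 and Stk39. The rule fixed part of this, since both arrays of a pool enter its mean. Another 21 members were above 0 on 11 arrays, 15 on 10, 17 on 9 and 6 on 8. Tagln2 ran from 0.26 to 1.44 over the arrays. Scrn1 missed by 1 array, at -0.03 in C57 pool 3 with rostral RNA in Cy5, and Mpped2 by 1, at -0.20 in MF1 pool 2.

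Turned by dye, 61 of the 65 were above 0 in the mean of each orientation. The exceptions were Plekhf1 (-0.23 with rostral RNA in Cy3, 1.51 in Cy5), Atp5k (-0.12 and 1.05), Tcp10b (below 0 and 0.96) and Syap1 (0.97 and -0.14). In these 4 genes (6.15%) the part of the signal that followed the dye was larger than the ratio, as in 52.8% of all symbols with 6 pools. The demand for a mean of at least 0.4 makes this rare among members, so nothing is read from the contrast. Scrn1 (1.44 and 0.98) and Mpped2 (1.20 and 0.84) were high in both orientations and higher with rostral RNA in Cy3. Stk39 (0.54 and 0.52), Map2k6 (0.56 and 0.65) and Acss1 (0.91 and 0.95) were close in both orientations. Ppp1r14a (0.12 and 1.30), Mest (0.11 and 1.07), Asz1 (0.10 and 1.12), Anxa7 (0.01 and 0.88) and Rinl (0.05 and 1.08) had nearly all of their ratio in 1 orientation. So had, among others, Emc9 (0.77 and 0.06), Sncaip (0.04 and 0.78), Slc4a1ap (0.08 and 0.74) and Avpi1 (0.12 and 0.82). Sprr2f and Nkapl counted among the 61, yet in every C57 pool their arrays lay on opposite sides of 0. With rostral RNA in Cy3, then Cy5, Sprr2f had 2.11 and -1.18, 2.07 and -1.14, and 1.73 and -0.45. Nkapl had 1.98 and -0.97, 2.035 and -1.84, and 0.70 and -0.245, in the same order. Of the 65 dye terms, 43 were above 0. Their median was 0.10, and over all symbols with 6 pools the median was also above 0, at 0.04. Nothing is therefore read from the count. The effect of spot brightness on the dye terms was not tested, since no spot intensities were used here.

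**Figure D3:**
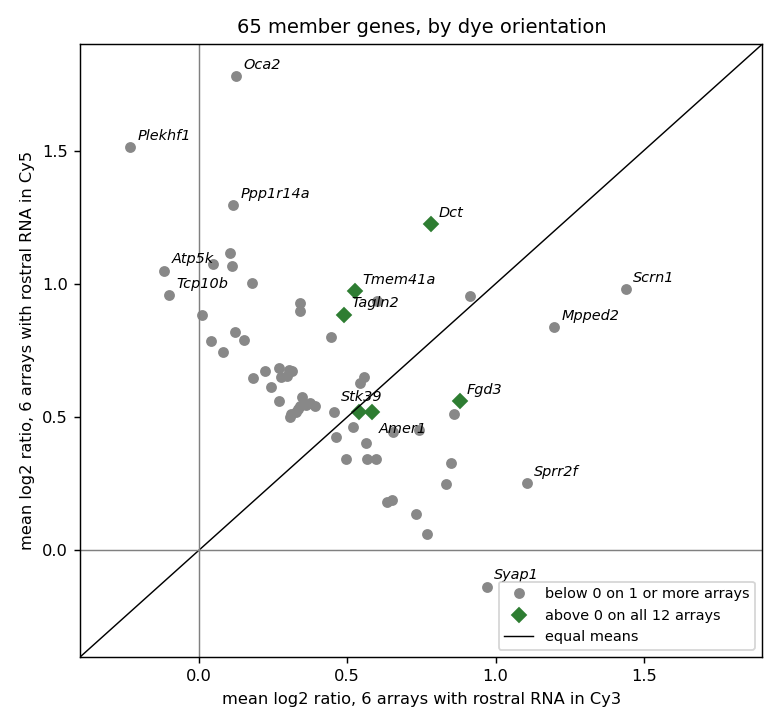
Mean log2 ratio of rostral over caudal signal on the 6 arrays with rostral RNA in Cy3 (horizontal axis) and on the 6 with rostral RNA in Cy5 (vertical axis) for the 65 members. Green diamonds are the 6 members above 0 on all 12 arrays, and the line marks equal means. Plekhf1, Atp5k and Tcp10b lie left of 0 and Syap1 below 0, whereas Scrn1 and Mpped2 lie far from both axes.

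Most members rested on 1 probe (60 of 65), and in the other 5 the 2 probes did not always go together. Both probes of Shprh were above 0 wherever measured, at means of 0.47 over 6 pools and 1.19 over 3. The first probe of Runx1 was below 0 in 2 pools (mean 0.29), and the second above 0 in all 4 it had (0.78). Ogn combined -1.98 and 2.39 in C57 pool 2, so that pool's value is a mean of opposite signs. Its first probe, the one measured in all 6 pools, averaged 0.02, and the second averaged 1.66 over 2, so the gene's mean of 0.43 depends on the second. In Tcp10b the probes averaged 0.15 and 0.53, with 1 and 2 pools below 0, and no means of probes differed in sign in any member. The second probe of Bpifb1 had a value in C57 pool 2 only, which is its highest pool (1.36). With every probe required to be above 0, 62 of the 65 remained.

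The difference between strains was not part of the rule, although the demand that every pool be above 0 bounds it. With limma 0 of 14418 features passed for C57 minus MF1 (0% at an adjusted p of 0.05), and 879 (6.1%) had an unadjusted p under 0.05. Members' adjusted p ran from 0.752 to 0.999, and 3 members had an unadjusted p under 0.05. C57 had the higher mean in 37 members (56.9%, against 49.1% of symbols with 6 pools). The pools of the strains did not overlap in 7 members (10.8%, against 9.26%), a share near that of all symbols.

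On the C57 side Hes5 had the smallest p, with means of 0.09 ± 0.09 in MF1 and 0.89 ± 0.38 in C57 (SD, n = 3 pools), a difference of 0.80 ± 0.26 (SE; limma, adjusted p = 0.752). Dipk1b, with ratios of 0.36, 0.02 and 0.01 in MF1 and 1.39, 0.93 and 0.58 in C57, had a difference of 0.83 ± 0.28 (adjusted p = 0.764). Fgd3 differed by 1.01 ± 0.40 (adjusted p = 0.80), Plekhf1 by 0.98 ± 0.43 and Pimreg by 0.90 ± 0.39 (both adjusted p = 0.842). In each of these 5 the MF1 mean was under 0.35. The highest C57 pool of Pimreg rested on 1 array, at 3.92 against 0.065 on the other. On the MF1 side the difference, C57 minus MF1, was -0.64 ± 0.28 in Shprh (adjusted p = 0.825), -0.53 ± 0.26 in Scrn1 (adjusted p = 0.887) and -0.52 ± 0.28 in Nkapl (adjusted p = 0.908). In Junb it was -0.61 ± 0.39 (adjusted p = 0.944) and in Ppp1r14a -0.50 ± 0.37 (adjusted p = 0.948). None passed, so no member was shown to differ between strains. Among the genes just named, only Hes5, Dipk1b, Pimreg, Shprh and Scrn1 had pools that did not overlap between strains. Tnfaip2 and Emc9 also did not overlap, with C57 means of 0.83 ± 0.16 and 0.61 ± 0.17 against 0.36 ± 0.14 and 0.22 ± 0.23 in MF1. Each array held 1 strain. Values were missing for 4.55% to 11.6% of probes on the MF1 arrays and for 12.5% to 18.2% on the C57 arrays, and the spread of ratios (SD from the median absolute deviation) was 0.38 to 0.64 against 0.64 to 0.88, so strain and array set cannot be told apart.

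**Figure D4:**
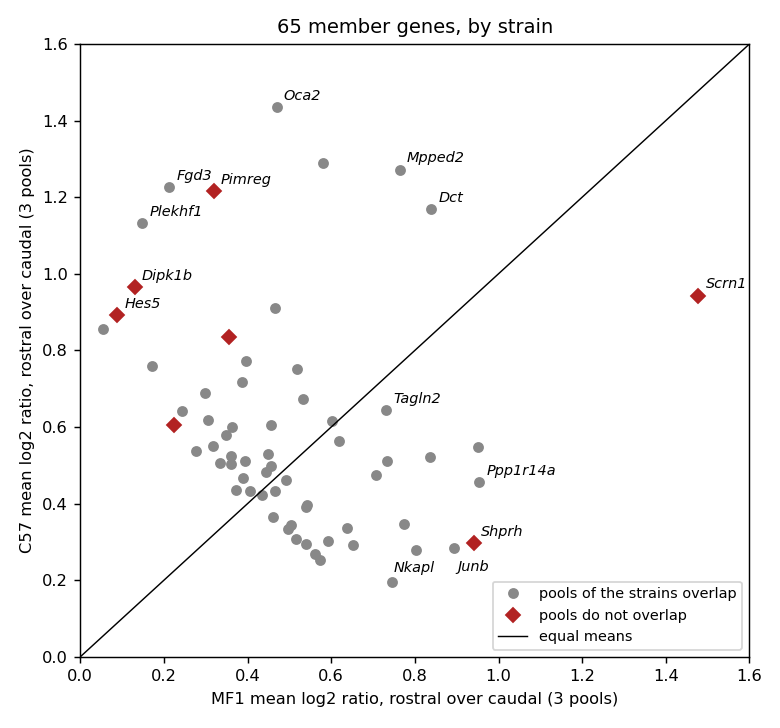
Mean log2 ratio of rostral over caudal signal in 3 MF1 pools (horizontal axis) and 3 C57 pools (vertical axis) for the 65 members. Red diamonds are the 7 members whose pools do not overlap between strains, and the line marks equal means. Hes5, Dipk1b and Pimreg lie above the line near the left edge and Shprh and Scrn1 below it; the empty lower left corner follows from the demand for a mean of 0.4.

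Markers of other tissues that a dissection could include were set beside the group, by count and median alone; 0 of their genes passed (limma, adjusted over all features) in any list. Retinal pigment epithelium had a median of 0.08 over 6 tested genes, 3 above 0. Without Rlbp1, a carrier of retinaldehyde that met the rule and was set aside (0.79 ± 0.20), it was -0.01 over 5, 2 above 0. Retina and eye field had -0.04 over 8, 4 above 0, and -0.08 over 7 without its member Hes5. Olfactory placode and epithelium had -0.02 over 13, 6 above 0. Septum and rostromedial telencephalon had -0.05 over 11, 5 above 0, and -0.07 over 10 without Zic1, which was set aside. Ventral telencephalon and interneurons had 0.02 over 21, 12 above 0. The median of all features was 0.01.

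Lists for tissue around the cortex had medians slightly below 0. For comparison, 51.6% of the 14418 features lay above 0. Centring also mattered, since 13 of the 17 list medians moved when arrays were not centred. No direction is therefore read from these small medians. The median was -0.12 for cortical hem and choroid plexus (5 of 15 above 0), -0.09 for meninges and mesenchyme (5 of 18, or -0.11 with 3 of 16 above 0 without the member Ogn and Zic1), -0.06 for vessels and mural cells (4 of 13) and -0.06 for red blood cells (2 of 7). It was -0.01 for microglia and macrophages (5 of 10). Cajal-Retzius cells, early neurons of the cortical surface, had a median of -0.41. Of their 7 tested genes 2 were above 0, Reln (0.30 ± 0.43) and Calb2 (0.16 ± 0.20). Of the cortex itself, radial glia had a median of 0.09, with 13 of 19 above 0, or of 0.04, with 10 of 16 above 0, without Hes5 and the genes set aside that had met the rule, Pax6 and Cdh2. Postmitotic neurons had 0.01, with 11 of 19 above 0. Over the lists of secernins and of transgelins and calponins the medians were 0.55 (2 tested) and 0.03 (4 tested); without Scrn1 and Tagln2 they were -0.11 (1 gene) and -0.11 (1 of 3 above 0). The part of tissue composition in the members' ratios was not tested.

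By name, the group held 1 of 633 uncharacterised transcripts with 6 pools (2510003B16Rik), 1 of 133 solute carrier symbols (Slc4a1ap, which is named for binding one), 1 of 73 symbols of the TMEM type (Tmem41a) and none of 68 cytosolic ribosomal proteins, 66 mitochondrial ribosomal proteins, 158 zinc finger symbols named Zfp or the like or 30 kinesins. It also held none of 90 symbols of patterning factor families, from which Pax6, Zic1 and Pou3f2 had been set aside by name, so that count says nothing about the group. Over all symbols with 6 pools the members are 0.732%. No members were direct neighbours on a chromosome among the genes of the array. Slc4a1ap and Rbks on chromosome 5 had 1 measured gene between them, and Stoml2 and Tpm2 on chromosome 4 had 4.

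In 9 members 1 pool stood apart from the other 5, all of them on the high side (13.8% against 8.75% of symbols with 6 pools). The rule bars pools below 0 and favours genes lifted by a high pool, so nothing is read from the side or the share. MF1 pool 3 was that pool for Tmem41a, Ppp1r14a, Sprr2f, Itm2b and Hmgn1, MF1 pool 1 for Junb and Ttyh1, MF1 pool 2 for Stoml2 and C57 pool 1 for Atp5k. Without it the mean of the other 5 pools stayed at 0.4 or more in Tmem41a (0.59), Ppp1r14a (0.498) and Sprr2f (0.42), and was 0.39 in Itm2b, 0.37 in Junb and Ttyh1, 0.30 in Hmgn1 and 0.23 in Stoml2 and Atp5k. For Ppp1r14a, Sprr2f, Junb, Stoml2 and Atp5k a single array of the pool apart held most of its value.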

How the data were processed

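The deposited table held log2 ratios between the dyes of each array, as read from the values themselves (signed, around 0, with a ceiling of 16.61); the sources used here do not state image analysis, background correction or normalization. The log2 values were used as deposited by the authors, for 21998 probes on 12 arrays, with 0 columns of other samples; 701 ceiling values were dropped. Each array was centred on its median, arrays with rostral RNA in Cy3 were turned, and the 2 arrays of a pool were averaged, then the probes of a gene. Probes with 1 symbol in the platform annotation (16864) were named; 139 had several and 4995 had no entry.

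Features with at least 2 pools per strain entered limma (version 3.58.1, under R 4.3.3; lmFit, then eBayes, on 6 pool means, 1 mean per strain, Benjamini-Hochberg adjustment, threshold 0.05), tested on simulated data. Signal over background is unknown, and the number of arrays limits the precision. The members and the 17 gene lists were chosen with earlier results of these data known. Genes named are all members, the relatives of Scrn1, Mpped2, Tagln2 and Dct, the symbols beside the threshold, and for strain the 5 members per side of smallest p. The alternatives were other centring, scaling, ceiling, probe and dye settings, thresholds, and each pool left out. Promoters come from RefSeq (GRCm38.p6), and members were matched by gene ID.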

Additional observations from a re-analysis of the deposited data

Results flagged for a closer look

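A test for 1 pool apart from the other 5 (Dixon's gap over range, beyond its 95% value for 6 pools) marked 9 members; chance marks about 1 in 20 groups, and 8.75% of all symbols with 6 pools were marked. The 6 pools of both strains formed 1 group, as groups of 3 are not tested. The values apart were 1.55 for Tmem41a, 1.74 for Ppp1r14a, 1.96 for Sprr2f, 1.58 for Itm2b and 0.97 for Hmgn1, all in MF1 pool 3. They were 1.69 for Junb and 0.96 for Ttyh1 in MF1 pool 1, 1.67 for Stoml2 in MF1 pool 2 and 1.66 for Atp5k in C57 pool 1. Values on the arrays of that pool follow, with rostral RNA in Cy3, then Cy5. Both were high in Tmem41a (1.36 and 1.74), Itm2b (1.80 and 1.35), Hmgn1 (1.135 and 0.81) and Ttyh1 (1.12 and 0.81). A single array held most of the value in Ppp1r14a (-0.25 and 3.74), Sprr2f (0.80 and 3.125), Junb (3.17 and 0.20), Stoml2 (0.09 and 3.25) and Atp5k (-1.31 and 4.63).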

How the results depend on the processing

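The number of member genes, 65, depended on the settings. It was 6 without median centring, with the 6 among the 65, and 106 with a pool taken from either array (60 shared). With 1 dye orientation it was 220 for rostral RNA in Cy3 alone (19 shared) and 270 for Cy5 alone (36 shared). A mean of at least 0.3 gave 142 and of 0.5 gave 28. Leaving out 1 pool gave 92 (without C57 pool 3) to 180 (without MF1 pool 3) symbols, with 54 to 57 of the 65 among them. Above 0 on every array were 6, a setting chosen after seeing the data. Arrays scaled gave 71, ceiling values kept 67, the median over probes 66, every probe above 0 62, and the sign turned 78 other symbols. Plekhf1 turned to -0.23, Atp5k to -0.12 and Tcp10b to -0.15 with rostral RNA in Cy3 alone, and Syap1 to -0.14 in Cy5 alone. Bpifb1 rose to 1.32 with ceiling values kept. The causes were not tested. No member's mean turned under the other settings.

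Features called between rostral and caudal numbered 0 with limma on pool means. They numbered 5 on features complete in 6 pools and 25 on the 12 arrays with pool as a random block. In the fit on 12 arrays the correlation between arrays of a pool was 0.0062, so the arrays counted almost as separate samples. All other settings called 0, and 0 were called between strains in any (1295 and 879 at an unadjusted p under 0.05 with limma on pool means). MF1 and C57 pools share only a number: same-numbered pools correlated at -0.15, 0.07 and -0.0044 in their deviations, and a replicate block on that number called 0 and 0 (976 and 732 at an unadjusted p under 0.05).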
